A study of Mus musculus with 9 samples.

Results

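Small nucleolar RNA (snoRNA) host genes are transcribed units whose introns hold snoRNAs. The 10 described here are Gas5, Zfas1, Snhg1, Snhg3, Snhg6, Snhg8, Snhg11, Snhg12, Snhg15 and Snhg17, taken by symbol from the 55385 gene rows of the deposited table, and each symbol matched 1 row. All 10 passed the filter on low values, as did 16982 genes in all. RNA from the ischemic brain hemisphere, depleted of ribosomal RNA, was sequenced in 9 libraries of male C57BL/6 mice aged 8 to 10 weeks, with 3 libraries in each of 3 groups. The celastrol group had transient middle cerebral artery occlusion (tMCAO, a filament model of ischemic stroke) for 90 min and received celastrol, a plant triterpenoid, by intraperitoneal injection of 4.5 mg/kg as reperfusion began. The tMCAO group had the same occlusion and reperfusion. Sham mice went through the operation with no filament closure of the artery. Neither the interval before sampling nor the number of animals per library is stated in the labels, so a p-value here reflects variation among libraries, which may be technical.

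In a snoRNA host gene the primary transcript is spliced, and the debranched introns are trimmed into snoRNAs. Box C/D snoRNAs guide 2′-O-methylation and box H/ACA snoRNAs guide pseudouridylation, mostly of ribosomal RNA. Many spliced host RNAs begin with a C followed by pyrimidines (a 5′ terminal oligopyrimidine tract, or 5′ TOP, as in mRNAs of ribosomal proteins), carry short reading frames, and are removed by nonsense-mediated decay while they are translated. Gas5, the best studied, was named for its accumulation in growth-arrested cells.

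The annotated loci (mm10, the build of the deposited table) hold 36 snoRNA genes in GENCODE M21, all of them between the exons of the host transcript with most exons. Gas5 (chr1:161034422-161038539, plus strand) holds 10, Snhg1 (chr19:8723475-8726443, plus) holds 8, and Snhg12 (chr4:132308623-132311024, plus) holds 5. These are counts of annotated entries. Snord80 in Gas5 and Snora16a in Snhg12 each have 2 overlapping entries, and 1 entry in Gas5 is named Mir5117. Zfas1 (chr2:167062934-167065862, plus) and Snhg17 (chr2:158353700-158361522, minus) hold 3 each. Snhg3 (chr4:132348014-132353686, minus) and Snhg11 (chr2:158375638-158386145, plus) hold 2 each. Snhg6 (chr1:9941959-9944118, minus), Snhg8 (chr3:123507552-123508404, minus) and Snhg15 (chr11:6525591-6528779, minus) hold 1 each. The snoRNA genes are 60 to 205 bases long. A script found both a C box (TGATGA in the first 20 bases) and a D box (CTGA in the last 20 bases) in 19 of them, an ACA near the 3′ end in 12, and neither in 5.

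**Figure D1:**
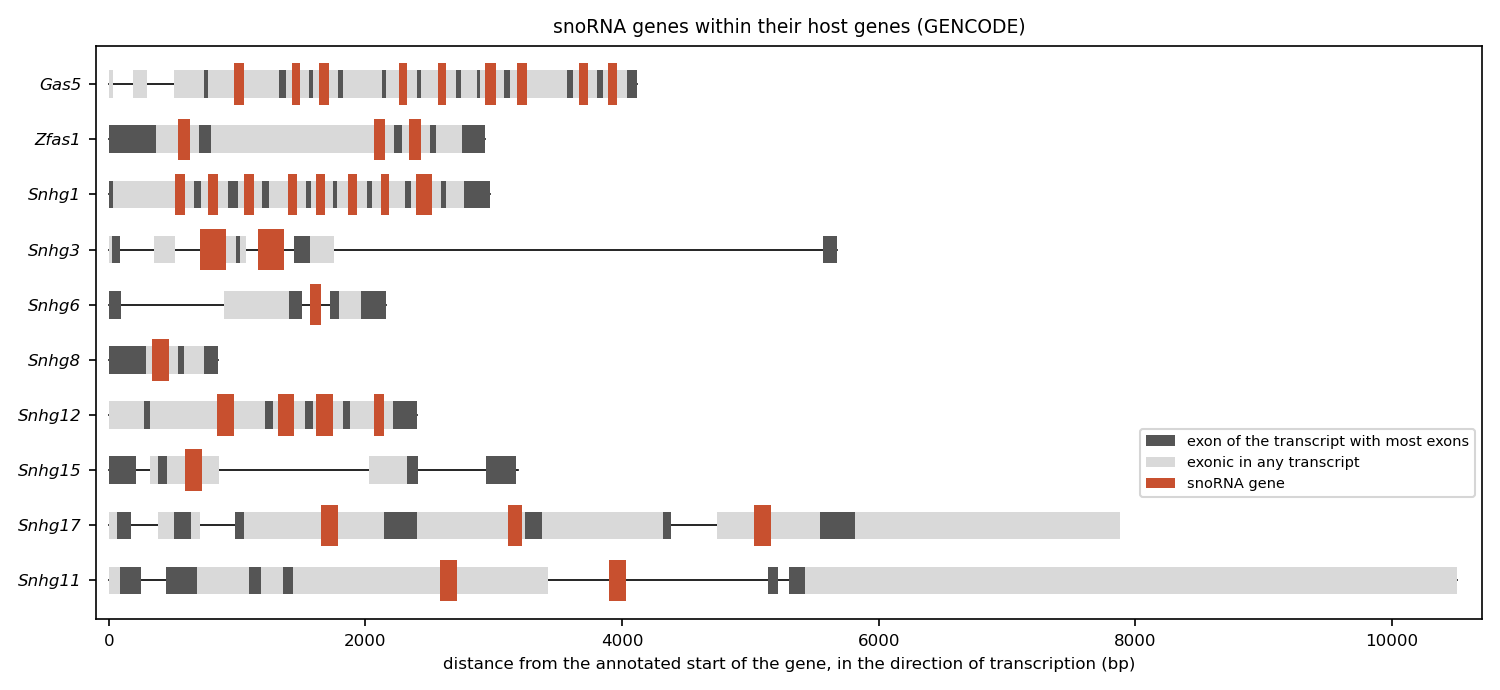
Maps of the 10 host genes, drawn in the direction of transcription from the annotated start (horizontal axis, bp; 1 row per gene). Dark blocks are exons of the transcript with most exons, pale blocks are exonic in any annotated transcript, and red blocks are the 36 snoRNA genes; pale blocks cover most of Gas5, Snhg1, Snhg8, Snhg12 and Zfas1 and little of Snhg3.

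Examples of host and snoRNA are printed to show what kind of guide RNA each host carries, 5′ to 3′, from the GENCODE M21 transcripts. Capitals mark a C and a D box where both were found, and otherwise the last ACA in the last 9 bases. All were searched on the snoRNA's own strand, and no H box was searched. In Gm25129 the marked ACA ends the annotated sequence, so it is not shown to be an ACA box.
Snord80 in Gas5 (chr1:161037604-161037680, plus): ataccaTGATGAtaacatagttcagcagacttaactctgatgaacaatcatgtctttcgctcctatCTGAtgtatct
Snord47 in Gas5 (chr1:161038082-161038158, plus): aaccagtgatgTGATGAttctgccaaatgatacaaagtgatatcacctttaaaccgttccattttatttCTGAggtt
Snord12 in Zfas1 (chr2:167065276-167065365, plus): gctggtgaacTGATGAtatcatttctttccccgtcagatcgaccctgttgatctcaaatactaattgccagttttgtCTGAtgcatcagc
Snord87 in Snhg6 (chr1:9942463-9942549, minus): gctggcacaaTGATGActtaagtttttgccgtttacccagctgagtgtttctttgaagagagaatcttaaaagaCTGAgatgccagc
Snora24 in Snhg8 (chr3:123507937-123508066, minus): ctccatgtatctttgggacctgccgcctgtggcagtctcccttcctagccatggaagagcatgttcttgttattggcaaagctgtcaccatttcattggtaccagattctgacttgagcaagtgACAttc
Gm25129 in Snhg11 (chr2:158379534-158379666, plus): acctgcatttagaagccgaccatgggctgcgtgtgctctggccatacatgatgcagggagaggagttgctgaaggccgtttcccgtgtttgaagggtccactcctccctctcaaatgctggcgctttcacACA

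The start regions of the hosts are shown because a 5′ TOP is known for several of them. The RefSeq promoter table (GRCm38.p6, the same assembly as mm10) holds 11 starts for 9 of the 10 genes. Each line gives 50 bases before the start and 30 from it. Capitals mark TATA between positions -45 and -15, which reads the same on both strands, and a C followed by at least 4 C or T letters beginning within 10 bases of the start, searched on the transcribed strand. Both motifs were chosen with the sequences in view, and they do not overlap in these windows.
Gas5, the second start (chr1:161035116-161035195, plus): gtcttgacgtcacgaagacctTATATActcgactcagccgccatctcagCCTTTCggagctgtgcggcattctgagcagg
Snhg12 (chr4:132308628-132308707, plus): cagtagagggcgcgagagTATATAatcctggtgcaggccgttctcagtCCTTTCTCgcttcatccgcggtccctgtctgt
Snhg8 (chr3:123508307-123508386, minus): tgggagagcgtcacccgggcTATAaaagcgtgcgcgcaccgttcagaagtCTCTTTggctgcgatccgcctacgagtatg
Snhg1 (chr19:8723437-8723516, plus): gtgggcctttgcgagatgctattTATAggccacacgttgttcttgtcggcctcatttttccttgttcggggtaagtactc
Snhg3 (chr4:132353657-132353736, minus): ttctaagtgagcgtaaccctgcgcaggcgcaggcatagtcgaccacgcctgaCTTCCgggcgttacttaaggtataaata
Snhg11 (chr2:158375663-158375742, plus): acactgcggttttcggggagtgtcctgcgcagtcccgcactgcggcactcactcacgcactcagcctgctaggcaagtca

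TATA was found at 4 of the 11 starts (Gas5, Snhg1, Snhg8 and Snhg12), where 7.22% of 32851 promoters in the table hold it. The pyrimidine run was found at 4 starts (Gas5, Snhg3, Snhg8 and Snhg12), where 30.7% of promoters hold it. Gas5, Snhg8 and Snhg12 held both at 1 start, as did 2.20% of promoters. Because the motifs were chosen with these starts in view, the shares describe these sequences and do not test an excess. A start placed a few bases away would change which runs fall in the window.

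Host genes differed widely in abundance. By mean FPKM over the 9 libraries (fragments scaled for length and library total), Snhg11 was highest at 26.2, followed by Gas5 at 18.3, Snhg8 at 11.1 and Zfas1 at 10.1. Snhg12 had a mean of 5.75 FPKM, Snhg6 4.85, Snhg1 3.73, Snhg3 2.42, Snhg17 1.77 and Snhg15 1.34. The ranges over the 9 libraries overlapped between Snhg8 (8.15 to 15.4 FPKM) and Zfas1 (6.25 to 15.1 FPKM), and likewise between Snhg17 (1.10 to 2.69 FPKM) and Snhg15 (0.594 to 2.43 FPKM). Snhg11 and Gas5 also overlapped (21.3 to 32.3 FPKM and 11.5 to 26.1 FPKM). Among 1264 long non-coding genes tested, Gas5 lay above 99.0% and Snhg15 above 66.1% by mean FPKM. The row of Snhg11 carries protein-coding, processed-transcript and retained-intron types and no lncRNA type, so the name lncRNA is not borne out by the annotation for that gene. For 8 of the 10 the length implied by the deposited count and FPKM was within 2% of the summed exons of all annotated transcripts, a union that covers 91.3% of the Gas5 locus and 100% of those of Snhg1, Snhg8 and Snhg12. For such genes a row sums spliced and intron-retaining RNA.

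Libraries held 60392960 to 75158625 estimated counts, of which the 10 genes took 0.0400% to 0.0472% in the celastrol group, 0.0403% to 0.0476% in the tMCAO group and 0.0360% to 0.0387% in the sham group. Celastrol replicate 2 stood apart from its group: on the first principal component of all genes tested, with 31% of the variance, it lay at -23.2, beside 44.1 and 20.3 for the other celastrol libraries, 17 to 58.1 for the tMCAO libraries and -58.7 to -25.8 for the sham libraries. Comparisons with the celastrol group are therefore also given without it. Its summed CPM (counts scaled to the TMM-adjusted library total) of 14 neuron markers was 15115, above 9410 and 9712 in celastrol replicates 1 and 3, 9383 to 10319 in tMCAO libraries and 11158 to 13273 in sham libraries, and none of the markers was at 0. Summed CPM of 8 neutrophil and monocyte markers was 21.0 to 33.4 in celastrol, 21.0 to 26.7 in tMCAO and 8.61 to 9.41 in sham libraries. Of these markers Ly6g, a neutrophil surface marker, was at 0 in every tMCAO and sham library. In celastrol libraries Ly6g ran from 0 to 0.0789 CPM. Choroid plexus markers ranged over 8.28 to 1817 CPM in celastrol, 19.3 to 502 CPM in tMCAO and 10.6 to 49.2 CPM in sham libraries, and striatal markers over 165 to 361, 234 to 753 and 206 to 1221 CPM in celastrol, tMCAO and sham libraries. The part of these marker values in the results was not tested.

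After occlusion, 8 of the 10 host genes were higher in every tMCAO library than in any sham library: Gas5, Zfas1, Snhg1, Snhg3, Snhg6, Snhg12, Snhg15 and Snhg17. Among all genes tested, 12.4% stood apart in that direction. Snhg8 overlapped between the groups, and Snhg11 was lower, with ranges that were apart under TMM but not under 3 other scalings. Their log2 fold changes were positive for 9 of 10 (50.9% of all genes), and the median over the 10 was 0.66, beside 0.01 over all genes tested and -0.03 over long non-coding genes. With edgeR's quasi-likelihood test and Benjamini-Hochberg adjustment over all genes, no host gene passed the threshold of 0.05 (adjusted p 0.131 to 0.541), nor did any other gene (0%). At an unadjusted p under 0.05, 6 of the 10 were higher and 0 lower, against 8.56% (1454 genes) and 6.36% (1080 genes) of all genes. DESeq2 on the same genes called the same 6 (Gas5, Snhg3, Snhg15, Zfas1, Snhg6 and Snhg1), all higher, among 836 genes in either direction (4.92%), and called 3.28% of all genes higher. Limma on log2(FPKM + 0.5) called 0 genes. The 10 genes and the gene lists were chosen with earlier results of these data known. Shares of all genes set beside them, here and below, are therefore a description and do not test an excess. In RNA of a whole hemisphere, a change in the number of cells and a change in RNA per cell cannot be told apart.

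Gas5, which holds the most annotated snoRNA entries of the 10, had 93.3, 97.7 and 87.7 CPM in tMCAO replicates 1, 2 and 3, against 60.8, 51.8 and 55.1 CPM in sham replicates 1, 2 and 3. Its log2 fold change was 0.73 ± 0.16 (SE; edgeR adjusted p = 0.131, DESeq2 adjusted p = 0.0043), and all tMCAO libraries were above the sham libraries. Zfas1, an antisense RNA that begins at the start of Znfx1, had 23.8, 31.6 and 21.4 CPM in tMCAO libraries and 16.6, 14.3 and 14.6 CPM in sham libraries. It differed by 0.76 ± 0.21 (edgeR adjusted p = 0.190, DESeq2 adjusted p = 0.027). For both genes the tMCAO and sham groups were apart, and a C and a D box were found in most of the snoRNAs that they hold.

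Snhg1, which holds Snord22 and 7 further snoRNA genes, had 17.8, 14.2 and 14.8 CPM in tMCAO libraries, against 8.47, 7.54 and 5.97 CPM in sham libraries. The log2 fold change was 1.09 ± 0.34 (edgeR adjusted p = 0.221, DESeq2 adjusted p = 0.0499), and the lowest tMCAO library lay well above the highest sham library. Snhg6, the host of Snord87, had 7.31, 7.58 and 7.75 CPM in tMCAO libraries and 5.32, 5.10 and 5.40 CPM in sham libraries, with little spread in either group. Its difference of 0.52 ± 0.18 did not pass edgeR (adjusted p = 0.246) and passed DESeq2 (adjusted p = 0.036).

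Among hosts of H/ACA snoRNAs, Snhg15, which holds Snora9, had 5.88, 4.23 and 6.93 CPM in tMCAO libraries and 1.83, 2.37 and 2.01 CPM in sham libraries. Its log2 fold change of 1.46 ± 0.38 was the widest of the 10 (edgeR adjusted p = 0.177, DESeq2 adjusted p = 0.011). Snhg3, which holds both copies of the U17-type snoRNA (Snora73a and Snora73b), had 4.11, 4.93 and 3.05 CPM in tMCAO libraries, against 2.04, 2.01 and 1.92 CPM in sham libraries. It differed by 1.02 ± 0.26 (edgeR adjusted p = 0.175, DESeq2 adjusted p = 0.0076). For both genes each tMCAO library lay above each sham library.

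Snhg12, with Snora16a, Snora44, Snora61 and Snord99, had 13.3, 17.7 and 21.1 CPM in tMCAO libraries and 12.5, 12.9 and 9.41 CPM in sham libraries. The groups were just apart, and the log2 fold change of 0.58 ± 0.26 did not pass by edgeR (adjusted p = 0.338) or DESeq2 (adjusted p = 0.258). Snhg17 had 16.1, 13.9 and 17.1 CPM in tMCAO libraries and 11.7, 13.4 and 10.4 CPM in sham libraries, a narrow gap, at 0.41 ± 0.26 (edgeR adjusted p = 0.499). Snhg8, the host of Snora24, had 11.1, 14.6 and 9.48 CPM in tMCAO libraries and 9.59, 11.2 and 8.25 CPM in sham libraries. These overlapped, and the 95% interval of its difference of 0.28 runs over -0.17 to 0.73. That difference was 0.10 without tMCAO replicate 2 and 0.18 without sham replicate 3.

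Snhg11 went the other way. It had 229.6, 260.6 and 194.9 CPM in tMCAO libraries, against 263.4, 261.7 and 291.2 CPM in sham libraries, a log2 fold change of -0.25 ± 0.17 (edgeR adjusted p = 0.522), and -0.16 without tMCAO replicate 3. The highest tMCAO library lay just under the lowest sham library, and 11.1% of all genes stood apart in that direction. The groups overlapped once libraries were scaled by their total alone, by the upper quartile or as FPKM. Most neuron markers were lower beside it, with negative log2 fold changes for 12 of 14 and a median of -0.27. Positive values were found for 2 of the 14, where 50.9% of all genes were positive. Tubb3, a neuronal tubulin, was at -0.57 ± 0.16 (edgeR adjusted p = 0.195, DESeq2 adjusted p = 0.042). It was the only 1 of the 14 with an unadjusted p under 0.05 by edgeR. The part of the neuron markers in the Snhg11 values was not tested.

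**Figure D2:**
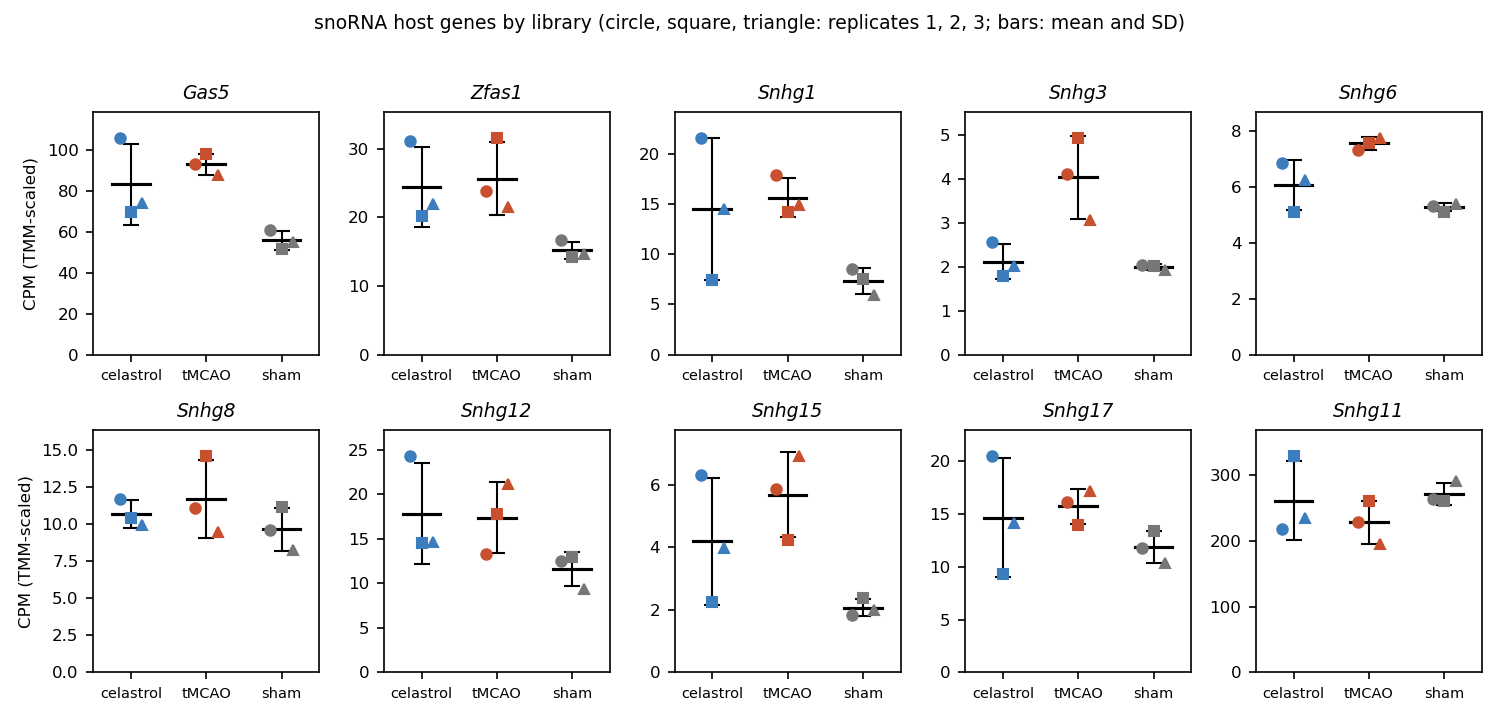
TMM-scaled CPM of the 10 host genes by library (vertical axes from 0, 1 panel per gene), with celastrol, tMCAO and sham groups from left to right, symbols for replicates 1, 2 and 3, and bars for the mean and SD of 3 libraries. In 8 panels all tMCAO points lie above the sham points, Snhg8 overlaps, and in the Snhg11 panel the tMCAO points lie below the sham points, though not when libraries are scaled by their total alone.

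Ratios within a library do not depend on how libraries are scaled. Per 100 Snhg11 counts there were 40.6, 37.5 and 45.0 Gas5 counts in tMCAO libraries, against 23.1, 19.8 and 18.9 in sham libraries. The ratio averaged 41.1 ± 3.78 in tMCAO and 20.6 ± 2.21 in sham libraries (SD, n = 3 each). Snhg11 is set below the others because it was the host gene lower in tMCAO, which by itself widens the ratio, so these ratios are a description with no test. The other 9 host genes together had 83.9, 79.2 and 97.2 counts per 100 Snhg11 counts in tMCAO libraries and 49.0, 46.1 and 38.8 in sham libraries. In the celastrol group the summed ratio was 105.4, 42.7 and 68.5 in replicates 1, 2 and 3, so 1 library lay above every tMCAO library, 1 within the sham range, and 1 between the groups. In summed CPM the 9 genes came to 230.7, 140.9 and 161.2 in the celastrol libraries, 192.8, 206.5 and 189.5 in the tMCAO libraries and 129.0, 120.5 and 113.0 in the sham libraries.

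**Figure D3:**
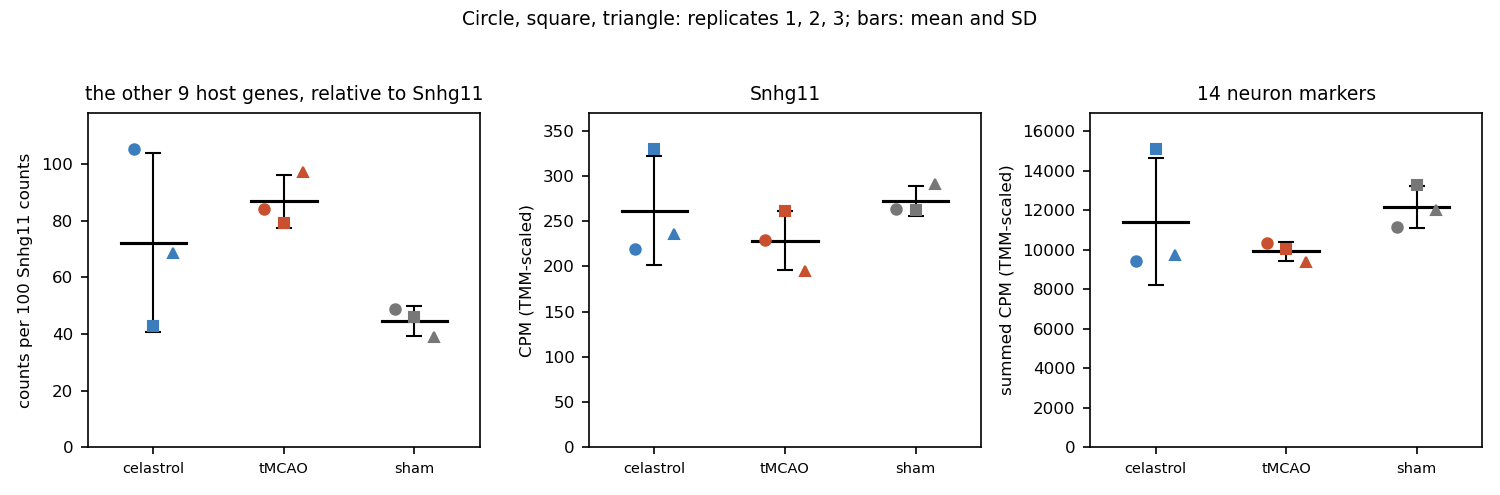
Left, counts of the other 9 host genes per 100 Snhg11 counts; middle, Snhg11 CPM; right, summed CPM of 14 neuron markers (vertical axes from 0; celastrol, tMCAO and sham groups from left to right; symbols are replicates 1, 2 and 3, bars the mean and SD of 3 libraries). Celastrol replicate 2 (square) has the highest Snhg11 and neuron marker values of the 9 libraries and a ratio of 42.7, within the sham range.

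Celastrol-treated mice, compared with tMCAO mice, showed no host gene past the threshold by edgeR (adjusted p 0.976 to 0.996) or DESeq2. Across all genes edgeR called 0 (0%), with 382 higher (2.25%) and 316 lower at an unadjusted p under 0.05, DESeq2 called 18 (0.106%), and limma called 0. Negative log2 fold changes were found for 8 host genes (50.7% of all genes) and positive ones for 2, and the median was -0.12 (all genes 0.00). Without celastrol replicate 1 the median was -0.39 with 1 positive, and 3 were lower at an unadjusted p under 0.05 (3.01% of all genes). Without celastrol replicate 2 the median was -0.03 and 4 were positive. Snhg3 and Snhg6 were lower in every celastrol library than in any tMCAO library, against 4.13% of all genes, and 0 host genes were apart in the higher direction (3.73% of all genes).

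Snhg3 had 2.55, 1.78 and 2.00 CPM in celastrol libraries, against 4.11, 4.93 and 3.05 CPM in tMCAO libraries, a log2 fold change of -0.93 ± 0.26 (edgeR adjusted p = 0.976, DESeq2 adjusted p = 0.156). It was the single host gene with an unadjusted p under 0.05, a level reached in the lower direction by 1.86% of all genes. Without celastrol replicate 2 the value was -0.82. Its celastrol values lay about the sham values of 2.04, 2.01 and 1.92 CPM, with 1 of the 3 inside the sham range of libraries and the log2 difference from sham at 0.09 ± 0.26. Snhg6 had 6.85, 5.11 and 6.24 CPM in celastrol libraries and 7.31, 7.58 and 7.75 CPM in tMCAO libraries, at -0.32 ± 0.18 (edgeR adjusted p = 0.976), and -0.21 without replicate 2. Both genes thus stood apart from tMCAO in all 3 celastrol libraries without passing a test over all genes.

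For the other 8 genes the celastrol and tMCAO libraries overlapped. Snhg15 had 6.32, 2.26 and 3.98 CPM in celastrol libraries, against 5.88, 4.23 and 6.93 CPM in tMCAO libraries, and its log2 fold change of -0.44 (95% interval -1.28 to 0.40) was -0.87 without celastrol replicate 1 (edgeR adjusted p = 0.758) and -0.14 without replicate 2. Gas5 had 105.9, 69.9 and 73.9 CPM in celastrol libraries, against 93.3, 97.7 and 87.7 CPM in tMCAO libraries. Its difference of -0.16 had a 95% interval of -0.52 to 0.20, which includes 0, and it was -0.37 without celastrol replicate 1, -0.05 without replicate 2 and -0.08 without replicate 3. Snhg1 had 21.6, 7.43 and 14.5 CPM with celastrol, with the highest and the second lowest values of its 9 libraries in 1 group. Its difference from tMCAO was -0.11 (95% interval -0.87 to 0.65), -0.51 without celastrol replicate 1 and 0.21 without replicate 2. Zfas1 (31.0, 20.2 and 21.9 CPM), Snhg12 (24.3, 14.5 and 14.6 CPM), Snhg8 (11.7, 10.4 and 9.94 CPM) and Snhg17 (20.5, 9.34 and 14.1 CPM) differed from tMCAO by -0.07, 0.04, -0.13 and -0.10. Without celastrol replicate 1 those differences were -0.29, -0.26, -0.21 and -0.43. Snhg11 had 219.0, 330.1 and 235.4 CPM in celastrol libraries, and its difference from tMCAO was 0.20, and -0.01 without replicate 2, whose neuron marker sum was also the highest of the 9 libraries.

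Against sham, the celastrol group had 9 of 10 positive log2 fold changes (50.4% of all genes) and a median of 0.44. Without celastrol replicate 2 the median was 0.62, and without celastrol replicate 1 it was 0.21 with 8 positive. This comparison shares the sham libraries with that of tMCAO and the celastrol libraries with the preceding one. No host gene passed edgeR (adjusted p 0.341 to 0.950) or DESeq2, which called 380 of all genes (2.24%) where edgeR called 1 (0.00589%). At an unadjusted p under 0.05 there were 5, each higher, against 5.69% of all genes: Gas5 at 0.57 ± 0.16, Zfas1 at 0.68 ± 0.21, Snhg1 at 0.98 ± 0.34, Snhg15 at 1.02 ± 0.37 and Snhg12 at 0.62 ± 0.26. That count was 2 without celastrol replicate 1 (3.3% of all genes), 2 without sham replicate 3 (4.15%) and 3 without sham replicate 1 (6.17%). Without celastrol replicate 1 the same 5 genes were at 0.36, 0.47, 0.58, 0.59 and 0.32. Gas5, Zfas1 and Snhg12 were higher in every celastrol library than in any sham library, against 7.89% of all genes. Without celastrol replicate 2, 8 stood apart from sham, 7 of them higher (16.8% of all genes) and 1 lower (14.8%).

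The spread between libraries was widest in the celastrol group for 8 of the 10 host genes and in the tMCAO group for 2. No share of all genes is set beside that count, so it is not read as a trait of the host genes. Celastrol replicate 1 lay above the sham range for 9 genes and below it for Snhg11, and it was the highest of the 9 libraries for 4 genes. Replicate 3 lay above the sham range for 7 genes. Replicate 2 lay within the sham range for 4 genes, above it for 4 and below it for 2, and it lay below the tMCAO range for 7. These positions of single libraries also stand without a share of all genes and only describe the 10 host genes. The SD of Gas5 was 19.7 CPM in the celastrol group, 5.00 CPM in the tMCAO group and 4.58 CPM in the sham group (n = 3 each), and that of Snhg1 was 7.07, 1.95 and 1.27 CPM in the celastrol, tMCAO and sham groups.

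**Figure D4:**
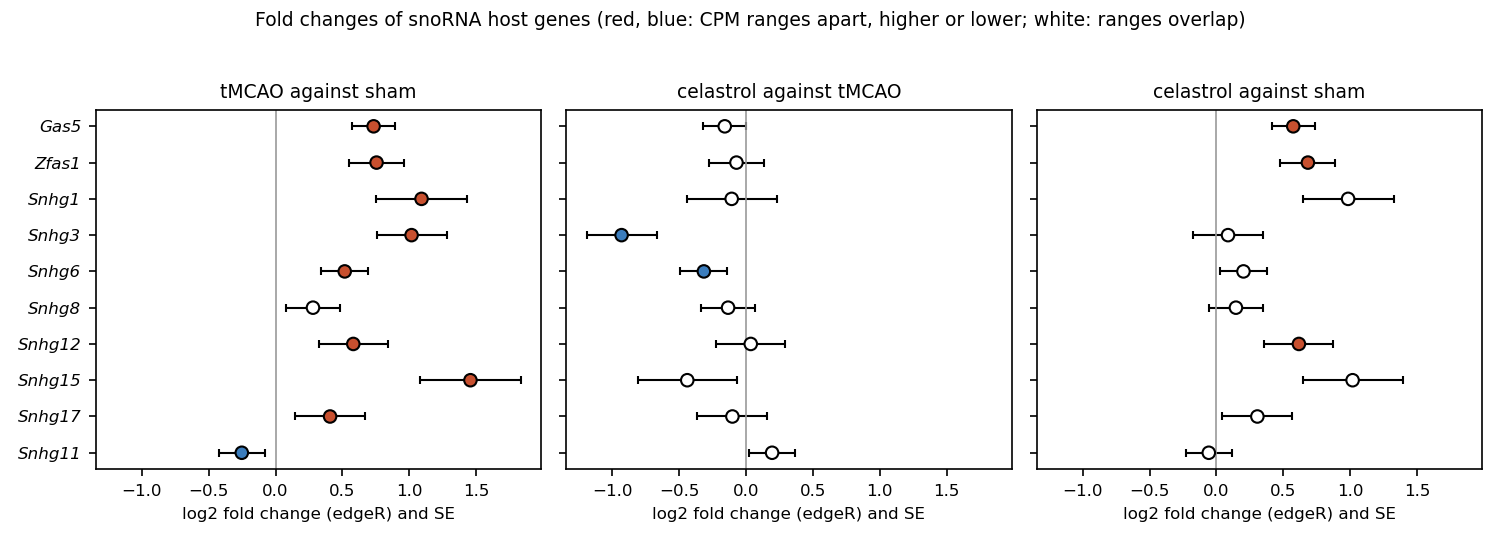
edgeR log2 fold changes of the 10 host genes (points) with SE (bars) in 3 comparisons, 1 panel each. Red and blue points mark genes whose CPM ranges did not overlap, higher or lower, and white points overlapping ranges; 8 are red and 1 (Snhg11, under TMM scaling) blue for tMCAO against sham, 2 are blue for celastrol against tMCAO, and 3 are red for celastrol against sham.

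The deposited rows of the snoRNAs themselves held few reads in these libraries, whose inserts were near 300 bp. Of the 36, 20 were at or under 3 counts in all 9 libraries, and 16 were listed at 1 count in every library. The 3 that were over 3 counts in every library lie in Gas5 and Snhg11. Gm22357, inside Gas5, had 63 to 156 counts, Snord80 in Gas5 had 19 to 53 counts in 1 of its 2 overlapping rows, and Gm25129 in Snhg11 had 42 to 71 counts. Such reads can also come from unspliced host RNA, so no comparison of snoRNA levels was made.

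Several hosts share their locus with other genes, so reads in shared bases are uncertain. For neighbours on the opposite strand, the sources used here do not say whether library making and counting kept strand. For neighbours on the same strand, such as Rcc1, strand would not separate the reads. The locus of Snhg3 overlaps that of Rcc1, a nuclear exchange factor gene on the same strand, by 5592 bp, introns included. Annotated exons of Snhg3 cover 17.4% of its locus, and the exonic bases shared with Rcc1 are not given here. Rcc1 averaged 10.3 ± 2.27 CPM in celastrol, 12.6 ± 3.09 CPM in tMCAO and 9.54 ± 0.62 CPM in sham libraries (SD, n = 3 each), at 0.40 when tMCAO was set against sham and -0.28 for celastrol against tMCAO (edgeR adjusted p = 0.448 and 0.976). Per 100 Rcc1 counts there were 19.9, 18.3 and 23.9 Snhg3 counts in celastrol libraries, 26.5, 52.7 and 23.7 in tMCAO libraries, and 20.7, 22.8 and 19.3 in sham libraries. All tMCAO ratios lay above the sham ratios. The ratio of celastrol replicate 3 lay within the tMCAO range, so for Snhg3 relative to Rcc1 the celastrol and tMCAO groups overlapped. Gm17300, on the opposite strand inside Snhg3, was at 1.18 in tMCAO against sham and 0.18 in celastrol against tMCAO (edgeR adjusted p = 0.208 and 0.988).

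Gas5 overlaps Zbtb37, a zinc finger gene on the opposite strand, by 428 bp. Zbtb37 had 13.8, 19.8 and 30.8 CPM in tMCAO libraries, against 27.8, 31.6 and 46.7 CPM in sham libraries, at -0.72 (edgeR adjusted p = 0.311), so its direction was opposite to that of Gas5. Znfx1, which overlaps Zfas1 by 82 bp on the opposite strand, was at 0.20 (adjusted p = 0.688), and Slc3a2, an amino acid transporter subunit gene that starts 106 bp from Snhg1 on the opposite strand, at 0.46 (adjusted p = 0.342). Mcmdc2, which overlaps Snhg6 by 127 bp, was at 0.25 (adjusted p = 0.785), and Gm27494 within Zfas1 at -0.28 on under 1 CPM. A row named Gm23925 inside Snhg17 was listed at 1 count in every library.

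Further snoRNA host RNAs were read from the same fit. Of 12 listed, Snhg7 matched no row and Snhg9 did not pass the filter, and 7 of the 10 tested had a positive log2 fold change for tMCAO against sham, against 50.9% of all genes, with a median of 0.33. There were 4 that stood apart as higher, again against 12.4% of all genes. Snhg5 had 6.49, 4.86 and 8.66 CPM in tMCAO libraries and 4.83, 3.53 and 4.01 CPM in sham libraries (0.69 ± 0.27). Snhg16 had 3.35, 3.51 and 3.76 CPM in tMCAO and 1.62, 1.84 and 1.87 CPM in sham libraries (0.99 ± 0.43), Epb41l4aos was at 0.88 ± 0.38 and Dancr at 0.62 ± 0.38. Rian, an imprinted RNA that carries a snoRNA cluster, was lower in every tMCAO library (366, 419 and 385 CPM) than in any sham library (506, 477 and 541 CPM), at -0.38 ± 0.13. It was the only 1 of the 10 apart in that direction, where 11.1% of all genes stood apart. Snhg14, the imprinted host of the Prader-Willi region snoRNAs, was at -0.19, Snhg4 at -0.13, Snhg18 at 0.17, Snhg20 at 0.08 and Snhg10 at 0.49. None of the 10 passed by edgeR or DESeq2. For celastrol against tMCAO, Dancr was lower in every celastrol library (0.554, 1.31 and 1.49 CPM) than in any tMCAO library (1.99, 1.95 and 2.24 CPM), at -0.88 ± 0.38 (edgeR adjusted p = 0.976). Again 1 of the 10 was apart in that direction, beside 4.13% of all genes.

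Protein-coding snoRNA hosts are mainly ribosomal protein and nucleolar genes. For tMCAO against sham, 32 of 35 had a positive log2 fold change (50.9% of all genes), with a median of 0.25. Of these hosts 21 stood apart as higher (12.4% of all genes) and 1 as lower (11.1%), while none passed by edgeR or DESeq2. Ncl, the nucleolin gene, at 0.33 ± 0.11 and Rpl12 at 0.34 ± 0.12 were among those with the smallest p (edgeR adjusted p = 0.229 and 0.249). Ncl averaged 346 ± 19.0 CPM in tMCAO and 274 ± 15.4 CPM in sham libraries (SD, n = 3 each). For celastrol against tMCAO, 29 of the 35 were negative (50.7% of all genes), with a median of -0.13, and -0.04 without celastrol replicate 2. Cnbp at -0.25, Rpl23 at -0.34 and Nop56 at -0.19 had the smallest p (edgeR adjusted p = 0.976 for each).

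Genes listed for a 5′ TOP, many of them translation factors, were positive for 17 of 18 in tMCAO against sham (50.9% of all genes). Their median was 0.19, and 9 stood apart as higher (12.4%). DESeq2 called 2 of them higher, beside 3.28% of all genes, Eif3e at 0.30 ± 0.08 and Btf3 at 0.44 ± 0.12 (DESeq2 adjusted p = 0.0025 and 0.045). Npm1, the nucleophosmin gene, which is also in the ribosome biogenesis list below, was at 0.44 ± 0.14 (edgeR adjusted p = 0.216). In celastrol against tMCAO the list had a median of -0.06, with 13 of 18 negative (50.7% of all genes) and 5 positive. Without celastrol replicate 2 the median was -0.005 and 9 were positive. Hnrnpa1, Npm1 and Eif3e, at -0.24, -0.25 and -0.11, had the smallest p.

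Genes listed for snoRNP proteins and their assembly showed smaller differences, with 14 of 18 positive in tMCAO against sham (50.9% of all genes) and a median of 0.08. Nop14, placed in this list though a factor of small-subunit processing, was at 0.50 ± 0.13. It was past the threshold by DESeq2 (adjusted p = 0.018) but not edgeR (adjusted p = 0.180). The C/D core proteins Nop58 and Nop56 were at 0.49 ± 0.20 and 0.15 ± 0.09. In celastrol against tMCAO the same 3 genes had the smallest p, with Nop56 at -0.19, Nop14 at -0.23 and Nop58 at -0.33, and the list median was -0.07. Nop56 is also among the protein-coding hosts above, so the lists share genes and are not separate sets. Factors of nonsense-mediated decay, the route that removes several host RNAs, had a median of 0.07 in tMCAO against sham, with 12 of 18 positive (50.9% of all genes) and 0 called by either tool. Magoh was at 0.37 ± 0.13, Eif4a3 at 0.22 ± 0.12 and Pnrc2 at 0.23 ± 0.13. In celastrol against tMCAO the decay list had a median of -0.05, and Upf3b at -0.33, Magoh at -0.19 and Eif4a3 at -0.17 had the smallest p.

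Genes of ribosome biogenesis and Myc had a median of 0.04 in tMCAO against sham, with 13 of 20 positive (50.9% of all genes), and DESeq2 called 2 higher, beside 3.28% of all genes. Myc, a transcription factor that drives ribosome production, averaged 7.24 ± 3.20 CPM in celastrol, 8.61 ± 0.91 CPM in tMCAO and 3.69 ± 0.36 CPM in sham libraries (SD, n = 3 each). Between tMCAO and sham it was at 1.22 ± 0.31 (edgeR adjusted p = 0.166, DESeq2 adjusted p = 0.0080). Polr1a, the catalytic subunit of RNA polymerase I, was at 0.28 ± 0.09 (DESeq2 adjusted p = 0.036). In celastrol against tMCAO this list had a median of -0.03, with Npm1 at -0.25, Polr1a at -0.14 and Mycn at 0.41. Regulators of translation and mTOR had 11 of 18 positive in tMCAO against sham (50.9% of all genes) and a median of 0.10. Eif2ak2, the interferon-induced kinase PKR, was at 1.25 ± 0.34 (edgeR adjusted p = 0.190, DESeq2 adjusted p = 0.018), Sesn2, a stress-induced inhibitor of mTORC1, at 0.78 ± 0.26 and Eif4e, the cap-binding factor, at -0.82 ± 0.32. In celastrol against tMCAO their median was 0.04, with Eif4e at 0.66, Atf4 at -0.43 and Ddit4 at 0.38.

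**Figure D5:**
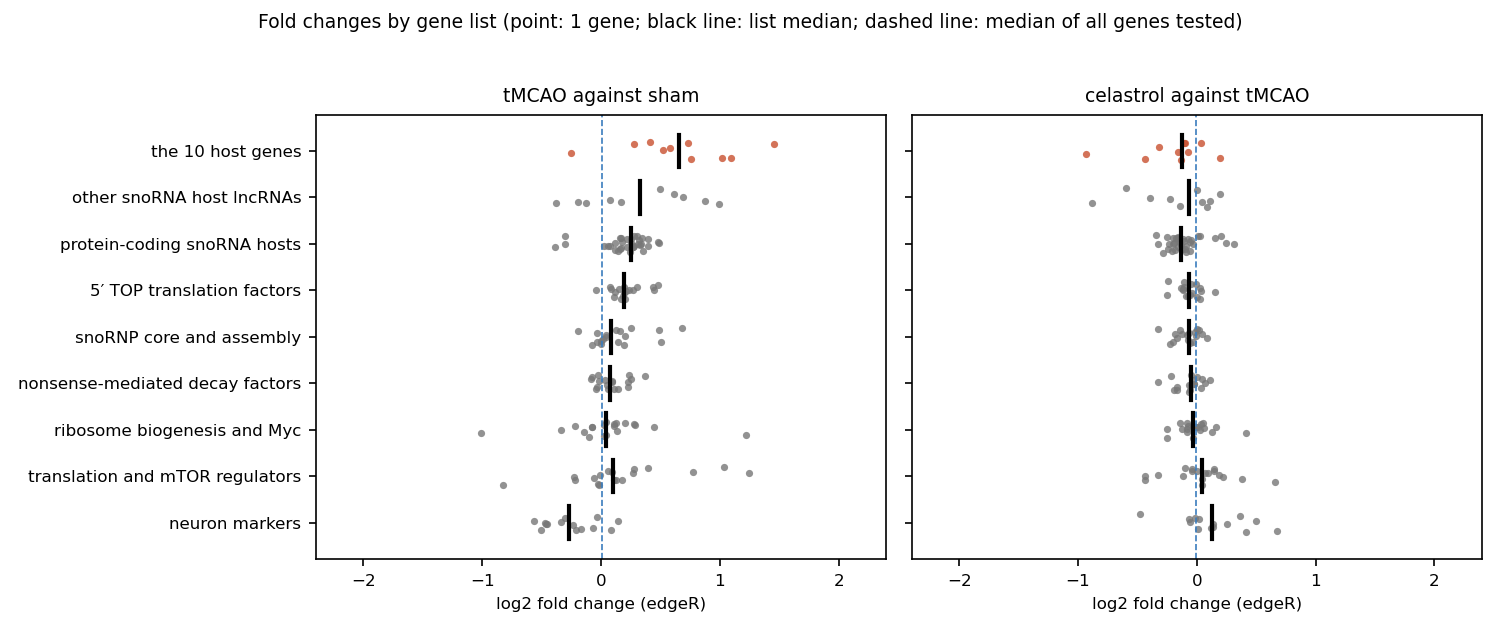
edgeR log2 fold changes (horizontal axis) of single genes (points) in the 10 host genes and 8 gene lists, for tMCAO against sham (left) and celastrol against tMCAO (right), with list medians as black lines and the median of all genes tested as a dashed line. Some genes belong to several lists. On the left the median of the 10 host genes lies at 0.66, that of protein-coding hosts at 0.25 and that of neuron markers at -0.27; on the right the medians lie nearer 0.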

How the data were processed

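Per the labels' protocols, 5 µg of TRIzol-extracted RNA per sample was depleted with Ribo-Zero Gold and read as 2 × 150 bp. The authors deposited 1 table with an estimated count (whole numbers) and an FPKM value per gene and library. The tools named in the submitters' processing notes are HISAT2 2.0.4, cutadapt 1.9, DESeq2, edgeR and StringTie 1.3.4d, with mm10 as build, and their settings are not stated there. Of per-sample columns 0 were left unmapped.

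Genes that reached 0.5 FPKM in 3 or more of the 9 libraries were tested in 1 fit of all libraries with TMM scaling (edgeR 4.0.16, glmQLFit and glmQLFTest, two-sided, R 4.3.3), with Benjamini-Hochberg adjustment over 16982 genes. SE is log2 fold change over the root of the F statistic. The script was tested on simulated data. Alternatives used DESeq2 1.42.0, limma 3.58.1, other scalings and filters, 2 groups alone, a replicate block, and leaving out each library. No pair of libraries differed by sampling noise alone. The members and lists were chosen with earlier results of these data known. Text names all members, the other host RNAs, overlapping or adjacent genes, and the 3 genes of each list, cell type markers aside, with the smallest p in tMCAO against sham and in celastrol against tMCAO; Ly6g and Tubb3 were named beside them. Intervals cover the spread between libraries. A gene that this rule takes is not reported here.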

Additional observations from a re-analysis of the deposited data

How the results depend on the processing

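For tMCAO against sham the direction of each of the 10 host genes was kept under all 10 alternatives and without each of the 9 libraries. DESeq2 called 6 of them, where edgeR called 0; the cause was not tested. Over all genes, edgeR called 0 for tMCAO against sham, against 2 with the other form of the quasi-likelihood fit, 836 with DESeq2, 2 with limma on log2(FPKM + 0.1), 30 with the 2 groups alone and 0 to 90 when 1 library was left out, 90 without celastrol replicate 2. For celastrol against tMCAO, DESeq2 called 18 and leaving out 1 library gave 0 to 2. For celastrol against sham, with 1 call, there were 3 with no filter, 2 at an FPKM of at least 1, 6 with the other form of the fit, 380 with DESeq2, 3 with limma on log2(FPKM + 0.1), 4 with the 2 groups alone and 0 to 43 when 1 library was left out, 43 without celastrol replicate 2. Host genes whose ranges did not overlap numbered 8 to 9 of 10 for tMCAO against sham under other scalings, 2 of which (library total alone, FPKM) were chosen after seeing the data. When 1 library was left out they numbered 2 to 4 for celastrol against tMCAO and 3 to 8 for celastrol against sham. The 4 came without celastrol replicate 1, each lower (10.5% of all genes), the 8 without celastrol replicate 2, 7 higher (16.8%) and 1 lower (14.8%), and there were 5 without sham replicate 2, each higher (11.5%).

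Small log2 fold changes changed sign. Snhg12 in celastrol against tMCAO was -0.024 and -0.027 with limma on log2(FPKM + 0.5) and log2(FPKM + 0.1). When 1 library was left out, celastrol against tMCAO ranged over -0.51 to 0.21 for Snhg1, -0.0075 to 0.30 for Snhg11, -0.26 to 0.21 for Snhg12, -0.43 to 0.14 for Snhg17, -0.26 to 0.049 for Snhg8 and -0.29 to 0.10 for Zfas1. Celastrol against sham ranged over -0.26 to 0.050 for Snhg11, -0.018 to 0.55 for Snhg17 and -0.074 to 0.19 for Snhg3. Deviations of same-numbered libraries correlated at -0.156 to 0.198 (9 pairs) and those of other pairs at -0.264 to 0.227 (18 pairs). With 3 libraries a group, these values cannot exclude that the replicate numbers pair the libraries. With the replicate block edgeR called 51 genes for tMCAO against sham, 0 for celastrol against tMCAO and 22 for celastrol against sham, and 0 host genes. Gas5, at 0.73 ± 0.16 for tMCAO against sham, did not pass edgeR, though it passed DESeq2 on the same libraries (DESeq2 adjusted p = 0.0043). Snhg3 and Snhg15 rest on as few as 111 and 116 counts in a library.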
